A study of Mus musculus with 4 samples.

Results

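The S100 calcium-binding protein family was followed through mouse bone marrow as 8 genes, S100a1, S100a4, S100a6, S100a8, S100a9, S100a10, S100a11 and S100a13, taken by symbol from the 31053 gene rows of the deposited matrices. Each symbol matched 1 row, and all 8 genes had UMIs (unique molecular identifiers, each standing for 1 captured RNA molecule) in every library. The libraries were made from bone marrow mononuclear cells (BMNCs) flushed from femur and tibia and separated on Ficoll-Paque, with 2 libraries from TLR9-/- mice and 2 from wild-type (WT) mice on a C57BL/6 background. The study profiled the 5′ ends of transcripts on the 10x Chromium platform in 2 experiments, each with 1 mouse per genotype, and the mice differed in whether they carry Toll-like receptor 9, an endosomal sensor of unmethylated DNA. Neither genotype is labelled with a treatment, and the age of these mice is not given in the sources used here. The questions addressed were which marrow cells carry each S100 RNA, how far S100a8 and S100a9 were found in cells that should lack them, and whether levels differed between TLR9-/- and WT.

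S100 proteins are small proteins with paired EF-hand motifs that change shape on binding calcium, and they act on other proteins inside the cell or, after release, on receptors of neighbouring cells. S100A8 and S100A9 form the heterodimer calprotectin, which makes up much of the cytosolic protein of neutrophils, withholds zinc and manganese from microbes and signals through TLR4 and RAGE once released. S100A10 pairs with annexin A2 at membranes, S100A4 binds non-muscle myosin, S100A6 binds calcyclin-binding protein and annexins, S100A11 binds annexins, S100A13 takes part in the release of proteins without a signal peptide, and S100A1 is best known as a regulator of calcium handling in muscle.

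The 8 genes lay on chromosome 3 of GRCm38 in 2 groups. S100a1 (minus strand, chr3:90511034-90514392) and S100a13 (plus strand, chr3:90514435-90524581) were divergent neighbours separated by 42 bases. S100a4 (chr3:90603771-90606045), S100a6 (chr3:90612882-90624181) and S100a8 (chr3:90668978-90670035), all on the plus strand, and S100a9 (minus strand, chr3:90692632-90695721) completed a stretch of 184688 bases. S100a8 and S100a9 pointed towards each other with 22596 bases between their gene bodies. S100a11 (chr3:93520488-93526287) and S100a10 (chr3:93555080-93564643), both on the plus strand, lay 2824766 bases further along and spanned 44156 bases together.

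Promoter sequences from RefSeq (GRCm38.p6) were found for 7 of the 8 genes, and the 250 bases before the RefSeq start are printed for 4 of the genes whose RNA marked neutrophils or monocytes. The windows were chr3:90668821-90669070 (plus strand) for S100a8, chr3:90695722-90695971 (minus strand) for S100a9, chr3:93520246-93520495 (plus strand) for S100a11 and chr3:90603520-90603769 (plus strand) for S100a4. Capitals mark matches, on either strand, to 4 motifs: TATAAA, the TATA box; TTNCNNAA, the core bound by C/EBP factors; GAGGAAG, a purine-rich core of the kind bound by PU.1; and TGANTCA, the AP-1 core.
S100a8: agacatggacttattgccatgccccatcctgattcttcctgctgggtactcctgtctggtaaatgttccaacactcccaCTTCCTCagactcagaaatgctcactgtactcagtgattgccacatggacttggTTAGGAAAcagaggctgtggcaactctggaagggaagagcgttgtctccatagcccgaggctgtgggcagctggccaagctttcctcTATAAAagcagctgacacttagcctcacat
S100a9: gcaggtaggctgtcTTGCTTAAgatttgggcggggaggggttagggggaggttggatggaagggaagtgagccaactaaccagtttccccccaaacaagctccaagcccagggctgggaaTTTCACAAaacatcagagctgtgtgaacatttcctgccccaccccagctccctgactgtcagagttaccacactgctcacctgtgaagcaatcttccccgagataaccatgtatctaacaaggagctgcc
S100a11: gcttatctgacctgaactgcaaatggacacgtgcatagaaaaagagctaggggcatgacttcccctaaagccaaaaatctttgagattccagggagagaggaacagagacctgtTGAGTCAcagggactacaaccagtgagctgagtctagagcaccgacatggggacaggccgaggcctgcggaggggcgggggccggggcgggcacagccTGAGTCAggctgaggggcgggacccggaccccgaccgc
S100a4: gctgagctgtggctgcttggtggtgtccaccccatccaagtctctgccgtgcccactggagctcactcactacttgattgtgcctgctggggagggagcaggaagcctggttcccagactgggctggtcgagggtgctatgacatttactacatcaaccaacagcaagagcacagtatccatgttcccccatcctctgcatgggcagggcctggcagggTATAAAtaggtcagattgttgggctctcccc

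TATAAA stood 30 to 25 bases before the start of S100a8 and 31 to 26 bases before that of S100a4. The C/EBP core was found in S100a8 at 117 to 110 bases and in S100a9 at 236 to 229 and at 130 to 123 bases before the start. GAGGAAG was found in S100a8 at 171 to 165 bases, and TGANTCA in S100a11 at 136 to 130 and 38 to 32 bases. The window of S100a6, whose RNA was also high in mature neutrophils and monocytes, is not printed and held no match to any of these motifs. The motifs were not rare: of 32536 distinct promoter windows of this length, 12.3% held TATAAA, 36.8% TTNCNNAA, 10.7% GAGGAAG and 6.73% TGANTCA. A match is a description of the letters and not evidence of binding.

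After removal of barcodes with few genes or over 10% mitochondrial UMIs, 39167 of 40545 barcodes were kept, with 8895 to 10781 cells and 31210188 to 63958243 UMIs per library. Cells fell into 30 clusters, built without any S100 gene, of which 37350 cells were named in 18 classes from fixed marker lists; a class name means that the cells carried markers like those of that cell type, and 4 clusters and 2 T cell subclusters with over 40% marked doublets (1480 cells) were left unnamed. Tlr9 itself was counted with 41 and 48 UMIs in TLR9-/- and with 120 and 97 UMIs in WT, and which part of the gene the allele lacks is not given in the sources used here. Pairs of libraries shared 112 to 185 cell barcodes, at most 1.75% of either library. The T cell class kept a subcluster of 418 cells that carried markers of natural killer cells, led by Klra7 and Klre1. It held 199 and 68 cells in TLR9-/- 1 and 2 and 112 and 39 cells in WT 1 and 2. The library WT 2 stood apart in neutrophil RNA outside neutrophils, and results that rest on it are given with each library's value. Cells of the neutrophil lineage made up 15.4% and 23.9% of TLR9-/- cells and 8.01% and 19.2% of WT cells, and S100a8 with S100a9 took 4.23% and 5.55% of every UMI counted in TLR9-/- and 3.52% and 6.58% in WT.

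Each S100 gene had its own distribution over the classes, shown in the map of mean levels. Levels are given as CPM, UMIs of the gene per 1000000 UMIs summed over the cells of a class in 1 library after TMM scaling, and values in 4 libraries follow the order TLR9-/- 1, TLR9-/- 2, WT 1, WT 2 throughout. S100a8 and S100a9 were highest in immature neutrophils, S100a6 and S100a11 in mature neutrophils, S100a4 and S100a10 in monocytes, S100a13 in natural killer (NK) cells and S100a1 in granulocyte precursors. For 4 of the genes the highest class moved with the processing. S100a10 was highest in NK cells when marked doublets were left out or doublet-rich clusters kept, S100a1 in the megakaryocyte lineage when classes were made from marker UMIs, and S100a11 and S100a13 in granulocyte precursors when mean UMIs per cell were taken in place of CPM. Because classes were made from the same cells, differences between classes are described and not tested.

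**Figure D1:**
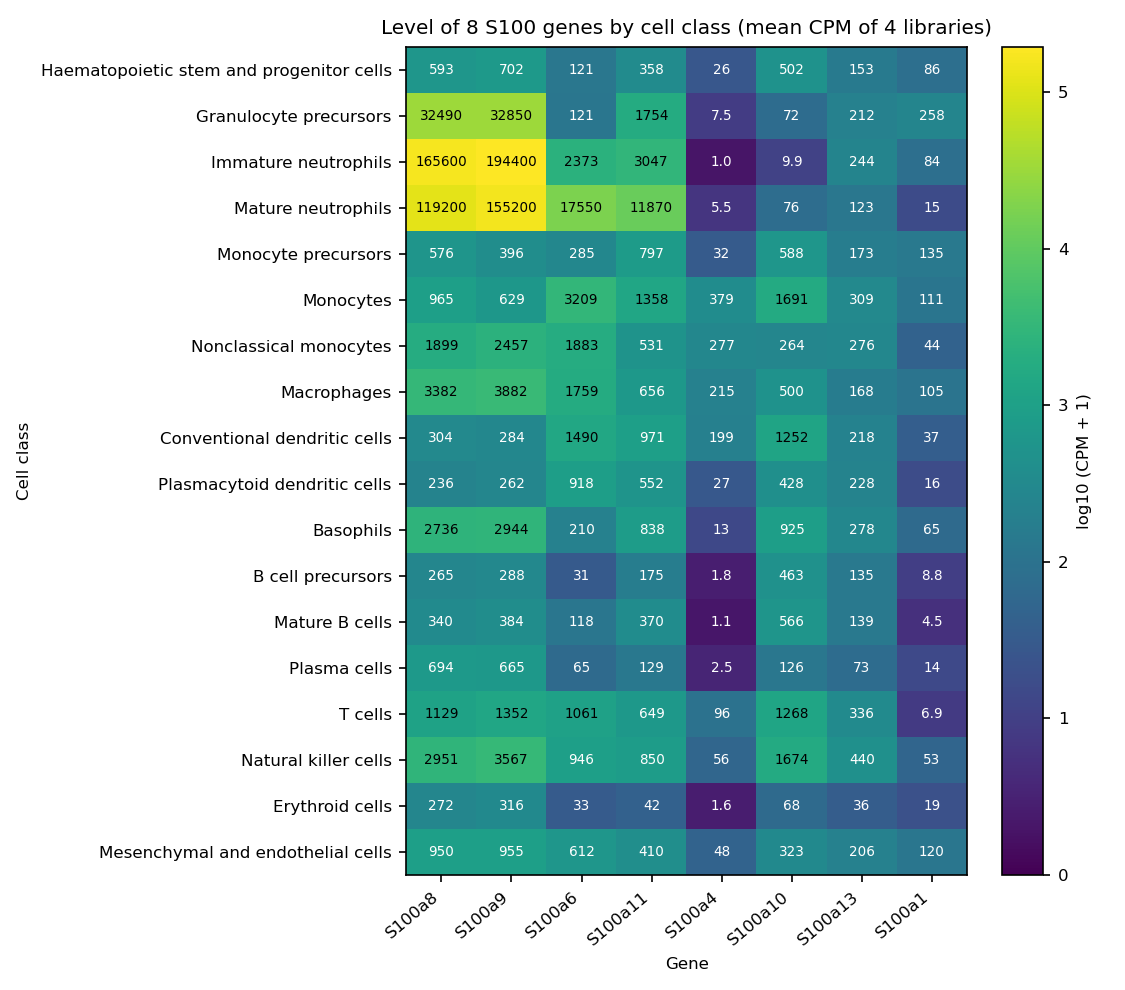
Mean CPM over 4 libraries of 8 S100 genes (columns) in 18 cell classes (rows), with the colour on a log10 scale of CPM + 1 and the mean printed in each cell. S100a8 and S100a9 pass 100000 CPM in the neutrophil classes, while S100a4 and S100a10 are near their lowest in immature neutrophils and highest in monocytes.

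S100a8 reached 194200, 140200, 187000 and 140800 CPM in immature neutrophils, cells marked by Camp, Ngp and Ltf. In mature neutrophils, marked by Retnlg, Il1b and Csf3r, it stood at 113200, 137300, 114500 and 111800 CPM, and in granulocyte precursors, marked by Elane, Prtn3 and Mpo, at 35050, 25240, 28500 and 41160 CPM. The ranges of these 3 classes did not overlap. S100a9 followed with 199800, 195700, 209000 and 172900 CPM in immature neutrophils, and its range in mature neutrophils (130700 to 202900) overlapped with that. Granulocyte precursors had 28630, 29630, 27030 and 46110 CPM of S100a9. All other classes lay below these. By the mean over libraries macrophages came next for S100a8, at 1059 to 8338 CPM, then NK cells (99.5 to 9551) and basophils (845 to 4538), with ranges that overlapped. The macrophage level rested on few cells: those with at least 20 UMIs of the pair numbered 1, 5, 2 and 0 and held 82.8%, 96.6%, 98.4% and 0% of its UMIs, and without cells holding a UMI of Camp, Ngp, Ltf, Lcn2 or Retnlg the level was 310, 102, 71.7 and 763 CPM.

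Calprotectin RNA dominated the neutrophil transcriptome as counted here. The pair took 37.3%, 34.3%, 37.8% and 34.0% of all UMIs in immature neutrophils, 25.2%, 30.7%, 26.3% and 26.9% in mature neutrophils and 6.25%, 5.71%, 5.62% and 8.45% in granulocyte precursors. In monocytes the share was 0.105%, 0.134%, 0.211% and 0.188%. Since CPM is a share of a total, the CPM of every other gene in neutrophils is measured on what these genes leave. The neutrophil classes held between 67% and 71.4% of all S100a8 UMIs of a library, granulocyte precursors 8.04% to 16.7% and monocytes 0.244% to 0.630%. Unnamed cells, most of them in the doublet-rich clusters, held a further 11.4% to 22.8%.

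The ratio of S100a8 to S100a9 UMIs in immature neutrophils was 0.972, 0.716, 0.895 and 0.815. It was close to this in mature neutrophils at 0.866, 0.676, 0.869 and 0.719, and at 1.22, 0.852, 1.05 and 0.893 in granulocyte precursors, with the precursors higher than the immature neutrophils in all 4 libraries. Both RNAs are counted from 1 end per molecule, so length does not enter, but the efficiency of capture of each RNA is unknown. Between genotypes the ratio in immature neutrophils differed by -0.0104 (two-sided exact permutation p = 1.0, where 2 against 2 libraries allow no p below 0.33).

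By CPM, S100a6 and S100a11 were highest at the mature end of the granulocyte clusters. From the precursors through an early immature cluster (Camp, Ngp, Fcnb) and a later one (Ltf, Ly6g, Mmp8) to mature neutrophils, S100a6 went from 96.7, 161, 99.3 and 126 CPM to 437, 245, 281 and 326, then 4817, 4957, 6155 and 5920, and at last 15890, 16780, 17260 and 20250. The last value exceeded that of the early immature cluster by 36.4-fold to 68.5-fold. None of these ranges overlapped. S100a11 stayed level over the first step, with 1604 to 1882 CPM in the precursors and 1598 to 2208 in the early immature cluster, and then increased to 3989 to 5392 and to 10550, 14640, 11260 and 11030 CPM. This was 5.10-fold to 8.47-fold above the early immature cluster.

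By CPM, S100a8 and S100a9 had another course over the same clusters. S100a8 increased 3.25-fold to 6.08-fold from precursors to the early immature cluster and 1.18-fold to 1.32-fold to the later one, where the pair took 42.7%, 38.3%, 43.1% and 39.6% of UMIs, and was lower again in mature neutrophils at 0.513 to 0.895 of that level. S100a1 ran the other way, at 264, 233, 285 and 248 CPM in precursors, 107 to 131 and 29.2 to 45.8 in the immature clusters, and 11.5, 9.18, 31.8 and 9.34 in mature neutrophils, a fall of 8.97-fold to 26.6-fold. The mature values rest on 3 to 7 UMIs per library. S100a13 was at 182 to 226 CPM in precursors and 250 to 312 in the later immature cluster, and was lower in mature neutrophils (106 to 143). Per cell, S100a8 was 457, 694, 343 and 657 UMIs in precursors. It was 906, 710, 556 and 785 in the class of immature neutrophils and 110, 199, 99.2 and 129 in mature neutrophils.

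**Figure D2:**
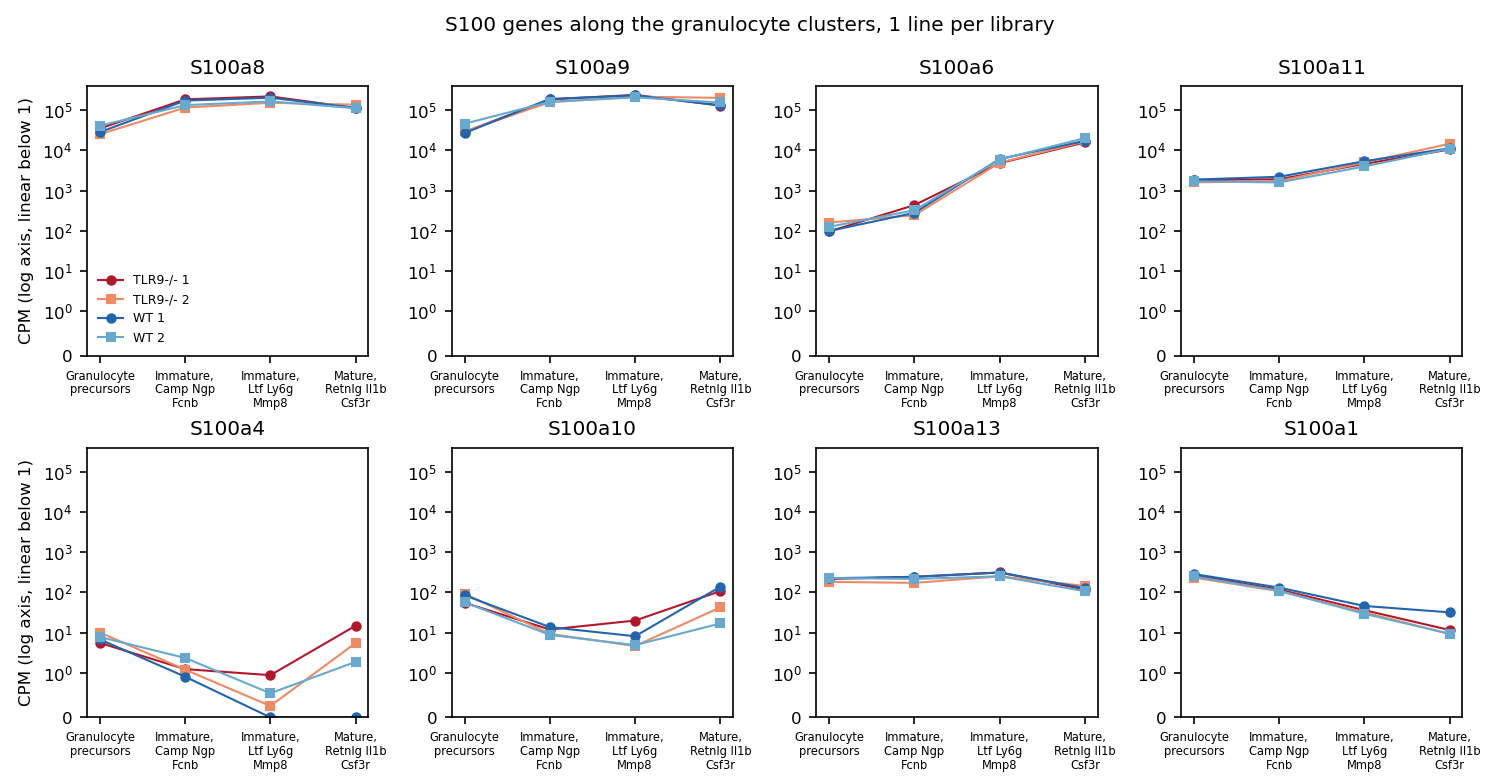
CPM (log axis, linear below 1) of 8 S100 genes in 4 granulocyte clusters ordered from precursors to mature neutrophils, with 1 line per library. S100a6 climbs to 15890 to 20250 CPM in mature neutrophils in all 4 libraries, S100a1 falls at each step, and S100a4 and S100a10 are low in the immature clusters.

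S100a4 marked the mononuclear phagocytes and was almost absent from immature neutrophils. Monocytes, which carried Fn1, F13a1 and Ccr2, had 326, 380, 379 and 432 CPM. Nonclassical monocytes (191 to 441), macrophages (178 to 251) and conventional dendritic cells (181 to 211) overlapped with each other, and T cells followed with 89.3, 104, 83.5 and 108 CPM, below all of them. Immature neutrophils had 1.13, 0.71, 0.547 and 1.66 CPM, from 1 to 9 UMIs per library, and mature B cells 0.409 to 1.85 CPM. Monocytes held 57.2% to 65.8% of all S100a4 UMIs. Monocyte precursors were at 31.9, 28.6, 28.6 and 39.8 CPM, below the monocytes in every library. This class was led by Mpo, Ctsg, Prtn3 and Elane, and its name was assigned narrowly. Its mean log2 fold was 1.95 for monocyte precursor markers and 1.87 for granulocyte precursor markers, with 5 of its leading genes on each list. Classes made from marker UMIs gave the name to 118 of its 1830 cells and left 1503 unnamed.

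With every cell thinned to 500 UMIs, 16.3%, 19.9%, 18.7% and 21.6% of monocytes had an S100a4 UMI. The corresponding share of mature B cells, which should lack the gene, was 0.0877%, 0%, 0.0539% and 0.154%, and the 0 in TLR9-/- 2 has an exact 95% upper bound of 0.266%. Exact intervals for the monocytes, from 14.2 to 25.4 over the libraries, cover counting error only.

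S100a10, the annexin A2 partner, was shared between monocytes, T cells and NK cells. Monocytes had 1853, 1705, 1791 and 1417 CPM and NK cells 1735, 1596, 1870 and 1493, and these ranges overlapped. T cells stood at 1325, 1050, 1379 and 1317 CPM and conventional dendritic cells at 1424, 1143, 1436 and 1007. The T cell subcluster with NK markers was at 973, 804, 901 and 772 CPM. Immature neutrophils were again the lowest class, at 14.2, 6.96, 11.5 and 7.18 CPM. At 500 UMIs per cell, 43.8% to 55.2% of monocytes, 44.1% to 57.7% of NK cells and 19.7% to 25.4% of mature B cells had an S100a10 UMI, against 0.216% to 0.813% of immature neutrophils.

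Monocytes also had S100a6 at 3110, 3156, 3288 and 3282 CPM, second to mature neutrophils, and S100a11 at 1272, 1468, 1422 and 1271 CPM. S100a6 in monocyte precursors was 297, 256, 279 and 308 CPM, far below the monocytes, whereas S100a11 in the precursors was 738, 761, 861 and 828 CPM. T cells had 1172, 784, 1045 and 1243 CPM of S100a6, and NK cells 929, 1067, 1053 and 733.

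S100a13 was the most even of the 8 genes, with class means from 36.1 to 440 CPM, and was highest in NK cells at 414, 452, 452 and 444 CPM. T cells (368, 269, 391 and 315) and monocytes (312, 296, 319 and 308) came next and overlapped with each other. Erythroid cells were lowest at 33.0 to 38.9 CPM. S100a1 was highest in granulocyte precursors, followed without overlap by monocyte precursors at 125, 131, 154 and 129 CPM, and monocytes had 120, 120, 109 and 94.3. Mature B cells were lowest for S100a1 at 3.27 to 5.48 CPM.

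Within the lymphoid classes S100a6 separated the subsets compared here. Mature B cells led by Fcer2a and Ighd had 375, 112, 183 and 165 CPM of S100a6, against 20.6, 10.5, 17.4 and 52.5 in the mature B cell cluster led by Ms4a1 and Tnfrsf13c, a range without overlap. S100a10 in the same clusters was 738, 590, 663 and 528 against 522, 463, 540 and 354 CPM. It was higher in the first cluster in every library, but the ranges overlapped. S100a11 differed less, at 338 to 428 against 315 to 396 CPM. In the T cell subcluster led by Cd8b1, Cd8a and Ccr7, S100a6 was 359, 159, 577 and 367 CPM, while the effector and memory T cells, led by Art2b and Cxcr6, had 1509, 1253, 1610 and 2236. WT 1 contributed only 12 cells to the first and WT 2 only 18 to the second.

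The other rows whose symbols begin with S100 added little. Of 10, S100g and S100z had 0 UMIs in all 4 libraries, which allows up to 3 UMIs per library, and S100a2, S100a3, S100a16, S100a5, S100a7a, S100b and S100a14 had 79, 46, 39, 18, 16, 13 and 9 UMIs in total. S100pbp, which encodes a binding partner of S100P and not an S100 protein, had 1885 and reached 20 UMIs in a library in 11 classes.

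Over the 18 classes, S100a8 and S100a9 had the most similar patterns to each other of all 11622 genes compared, with a Pearson r of 0.996 on mean log2(CPM + 10). Wfdc21 and the granule gene Lcn2 followed for S100a8, both at 0.983. S100a4 was most like Ccr2 (0.944), the chemokine receptor of inflammatory monocytes, then Capn2 (0.905) and Mcub (0.902). S100a10 was nearest to Tmsb10 (0.921), Anxa6 (0.909) and Crip1 (0.904), and S100a6 to Hpcal1 (0.89), Anxa2 (0.884) and Cd44 (0.876). For S100a11 the nearest were Lyst (0.921) and Dhrs7 (0.916), for S100a13 Arhgap1 (0.875), Rnf166 (0.865) and Klhl36 (0.853), and for S100a1 Msantd3 (0.88), Gpr160 (0.876) and Tmem205 (0.867). The 18 points share libraries and are not independent, and no test was made.

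S100a8 and S100a9 UMIs also turned up in cells that should lack them. Mature B cells carried 0.992, 0.75, 0.351 and 2.47 UMIs of the pair per cell, and 40.5%, 39.6%, 21.4% and 84.4% of them had at least 1, at median depths of 1115, 1647, 1022 and 1359 UMIs. WT 2 was the highest library and WT 1 the lowest, so the WT range enclosed both TLR9-/- values. The difference between genotypes was -0.538 UMIs per cell (two-sided exact permutation p = 1.0). Without cells holding a UMI of the granule genes Camp, Ngp, Ltf or Retnlg, the values were 0.558, 0.53, 0.249 and 1.87, and T cells, with 0.595, 0.589, 0.301 and 1.94, and plasmacytoid dendritic cells, with 0.566, 0.733, 0.324 and 2.07, had nearly the same numbers in each library.

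At 500 UMIs per cell, 11.9%, 7.95%, 5.92% and 34.1% of mature B cells had an S100a8 UMI and 12.9%, 10.4%, 6.68% and 31.4% an S100a9 UMI. Genotypes differed by -10.1 and -7.39 percentage points (both two-sided exact permutation p = 1.0). T cells were at 11%, 6.56%, 6.94% and 29.6% for S100a8 and NK cells at 8.44%, 8.47%, 6.15% and 33.9%. In immature neutrophils the share was 100% in every library.

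Within a library the ratios of Camp, Ngp and S100a8 to S100a9 were of the same order in B cells and in neutrophils. They were not equal: B cells were lower in both TLR9-/- libraries and WT 1 and higher in WT 2. Camp UMIs per S100a9 UMI were 0.331, 0.299, 0.33 and 0.339 in neutrophils and 0.261, 0.278, 0.269 and 0.412 in mature B cells, and those of Ngp were 0.232, 0.203, 0.207 and 0.192 against 0.183, 0.169, 0.192 and 0.235. S100a8 per S100a9 was 0.972, 0.716, 0.895 and 0.815 in immature neutrophils and 0.801, 0.697, 0.669 and 1.04 in mature B cells. S100a6, S100a11 and S100a10 went past the ratio taken over both neutrophil classes together. S100a4 had only 2, 1, 2 and 6 UMIs in mature B cells. At the neutrophil ratio to S100a9, mature B cells would hold 12.6, 12, 6.43 and 52.8 UMIs of S100a6, and 297, 220, 223 and 322 were counted. The ratio differed between the neutrophil classes. In WT 2, S100a6 and S100a9 were at 2220 and 172900 CPM in immature and at 20250 and 155500 CPM in mature neutrophils. The S100a6 counts were not compared with the ratio of mature neutrophils alone, which would bring the number for WT 2 close to the count. For S100a11 the numbers were 12.8, 13.7, 7.40 and 43.2 at that ratio and 649, 924, 897 and 1023 counted. For S100a10, 999, 1429, 1460 and 1409 UMIs were counted, with less than 1 at the neutrophil ratio in each library.

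**Figure D3:**
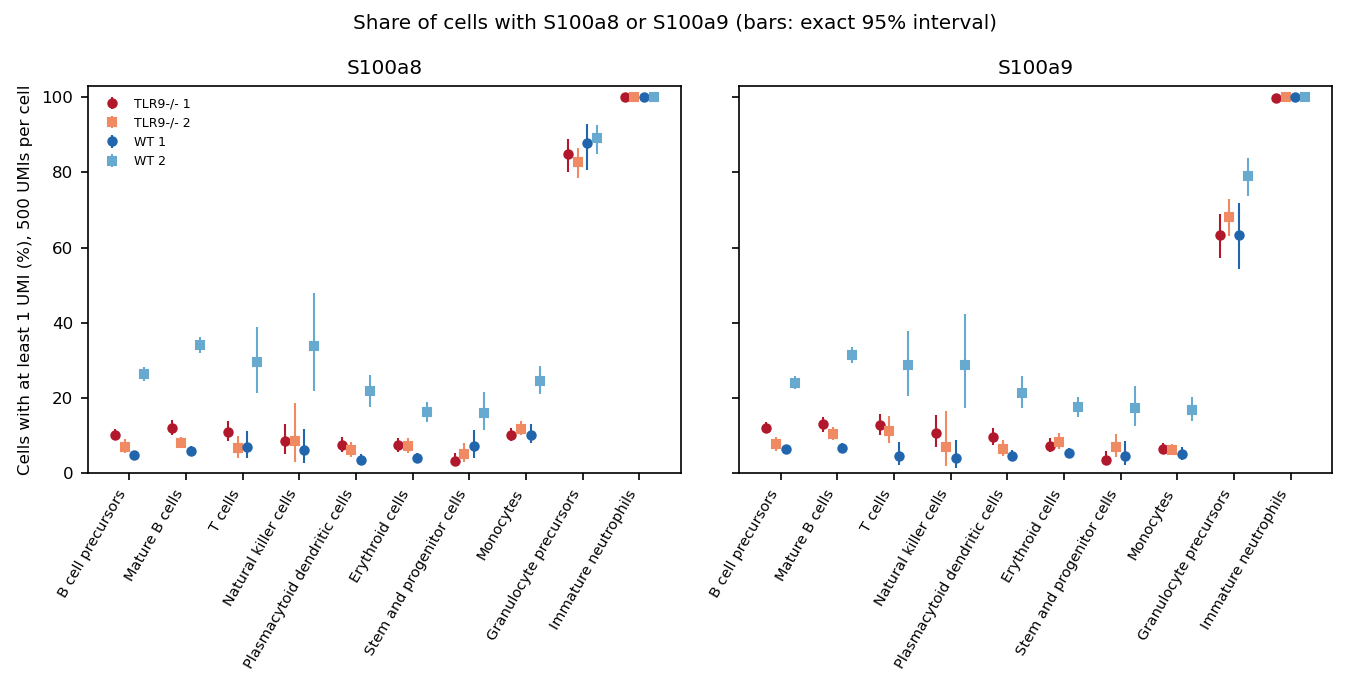
Share of cells (%) with at least 1 UMI of S100a8 (left) or S100a9 (right) after thinning to 500 UMIs per cell, in 10 classes, with 1 point per library and bars for the exact 95% interval. WT 2 is the highest library in the lymphoid classes at about 30%, and immature neutrophils are at 100% in all libraries.

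A few cells carried much of the calprotectin RNA that was counted in other classes. Cells with at least 20 UMIs of the pair numbered 10, 10, 2 and 4 among 315, 205, 169 and 109 basophils and held 98.0%, 98.5%, 93.0% and 84.5% of that class's UMIs of the pair. Among NK cells 8, 2, 1 and 1 such cells held from 31.3% (WT 2) to 99.2% (TLR9-/- 2), and among T cells 5, 6, 1 and 2 held 85.0%, 93.5%, 83.8% and 66.5%. In mature B cells the share was 35.6%, 9.93%, 12.3% and 5.46%. In basophils, S100a8 was 845 to 4538 CPM in all cells and 117, 61.9, 53.0 and 497 CPM after cells with a UMI of any of 5 granule genes (Camp, Ngp, Ltf, Lcn2 and Retnlg) were left out, a choice made after the values were seen and called the removal of granule-positive cells from here on.

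Monocytes differed from lymphoid cells in the balance of the pair. S100a8 in monocytes was 653, 721, 1320 and 1166 CPM and S100a9 404, 609, 802 and 701 CPM, which gave an S100a8 to S100a9 ratio of 1.62, 1.18, 1.65 and 1.66. Without granule-positive cells the ratio was 2.66, 2.56, 2.86 and 1.98, above that of neutrophils and of mature B cells in each library. This balance was not particular to monocytes. The cells named monocyte precursors had ratios of 1.28, 1.22, 1.98 and 1.37, and of 2.29, 2.79, 1.91 and 2.38 without granule-positive cells. Genotypes differed by -0.254 in the ratio over all monocytes (two-sided exact permutation p = 0.33). The level was not evenly spread: 32, 34, 26 and 29 monocytes with at least 20 UMIs, out of 1206, 1114, 605 and 532, held 74.4%, 82.2%, 89.3% and 66.2% of the pair. At 500 UMIs per cell 10.0%, 11.8%, 10.2% and 24.6% of monocytes had an S100a8 UMI, above the mature B cells in TLR9-/- 2 and WT 1 and below them in TLR9-/- 1 and WT 2. At this depth the share of monocytes with S100a8 was therefore not above that of mature B cells in every library. Thinning removed more UMIs from monocytes, whose median depths were 4313, 4673.5, 3295 and 3964 UMIs, than from mature B cells. Without thinning, 57.5%, 55.7%, 40.3% and 90.2% of monocytes had a UMI of the pair. In mature B cells the shares were 40.5%, 39.6%, 21.4% and 84.4%. The part of depth in either comparison was not tested.

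**Figure D4:**
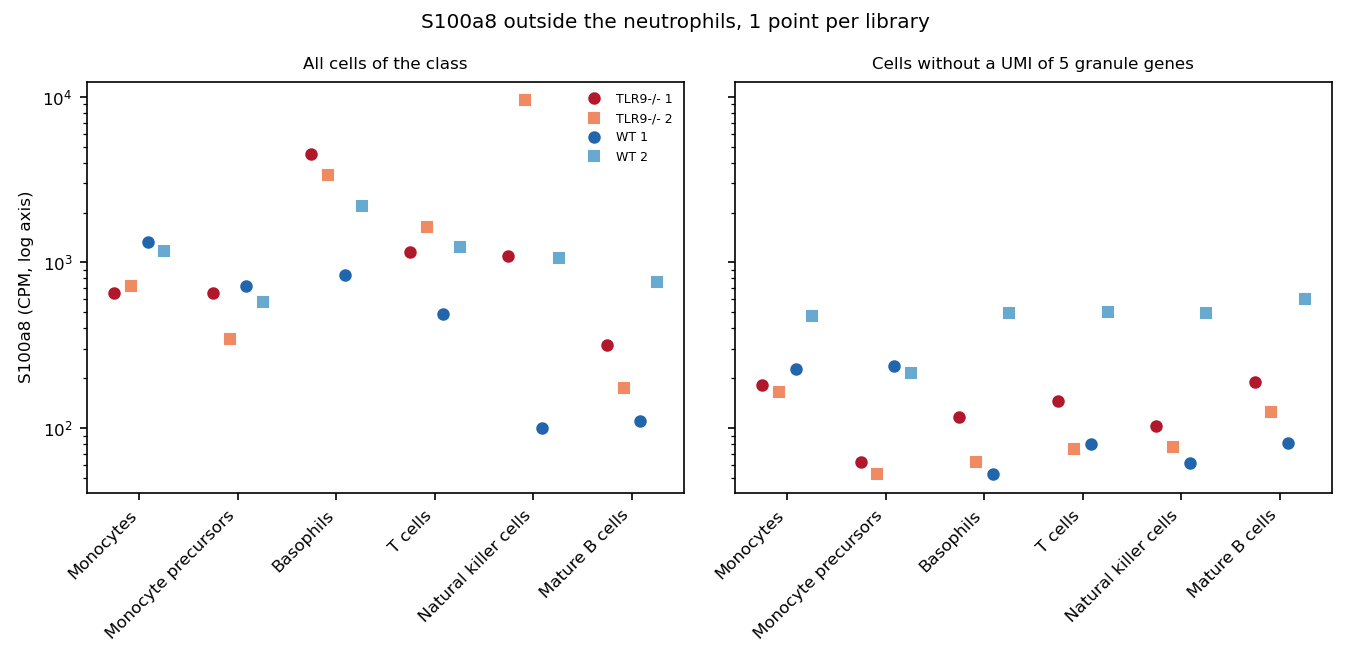
S100a8 level (CPM, log axis) in 6 classes outside the neutrophils, with 1 point per library, for all cells (left) and for cells without a UMI of 5 granule genes (right). Leaving those cells out brings basophils, T cells and NK cells down to the level of mature B cells, with WT 2 highest in each, and the separation of TLR9-/- from WT in monocyte precursors appears on the right. Among the WT 1 monocyte precursors on the right, 2 cells held 77.8% of the UMIs of S100a8 and S100a9.

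Between TLR9-/- and WT no member passed the test in any class. Of 132 tests of a member in a class, edgeR's quasi-likelihood test with Benjamini-Hochberg adjustment over all genes of the class called 0 at an adjusted p under 0.05, beside 0.302% of all 119395 tests of a gene in a class. DESeq2 called 2, S100a8 in monocytes and in conventional dendritic cells, beside 0.384% of its tests, and a fit with the replicate number as a block called 11, beside 1.66%. At an unadjusted p under 0.05 there were 14 of 132 (10.6%), 9 higher and 5 lower in TLR9-/-, beside 6.53% over all genes. Of the 36 tests of S100a8 and S100a9, 11 were among these, and of the 96 tests of the other 6 genes, 3 were. The median absolute log2 fold change was 0.637 for the S100a8 and S100a9 tests, 0.153 for the other 6 genes and 0.232 for all genes. In simulated data of this size, 76% of genes changed 2-fold were recovered in immature neutrophils and 75% in mature B cells. The simulation gave all genes the same spread between libraries and changed only well-counted genes. The standard error of S100a8 was 0.275 in immature neutrophils and 0.673 in mature B cells, and recovery at the spread of S100a8 and S100a9 was not simulated. P-values measure only the spread between these libraries.

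In neutrophils no S100 gene that was tested passed. The libraries of the genotypes overlapped except for S100a6 and, from few UMIs, S100a4 in mature neutrophils. The share of all genes without overlap between genotypes was not counted, in these classes, in others or over all cells. A lack of overlap is therefore described and is by itself no evidence of a difference. S100a8 had a log2 fold change of 0.03 (SE 0.275) in immature and 0.14 (SE 0.192) in mature neutrophils, and S100a9 of 0.05 (SE 0.258) and 0.21 (SE 0.219), with adjusted p = 0.999 from edgeR in each, where 0.533% and 0.203% of all genes in these classes were called. S100a6 was at -0.09 (SE 0.278) and -0.21 (SE 0.224), with 15890 and 16780 CPM in TLR9-/- against 17260 and 20250 CPM in WT in the mature cells, and S100a11 at 0.10 (SE 0.274) and 0.17 (SE 0.243). S100a10 in mature neutrophils was at 0.70 with an SE of 0.717. S100a4 was not tested in the neutrophil classes because its counts were too low (9, 3, 0 and 1 UMIs in mature neutrophils), and S100a1 was not tested in mature neutrophils for the same reason.

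In monocytes, 7 of the 8 genes differed by less than 0.6 on the log2 scale, and the exception was S100a8. Its values of 653 and 721 CPM in TLR9-/- and 1320 and 1166 CPM in WT did not overlap, with a log2 fold change of -0.86 (SE 0.171, edgeR adjusted p = 0.11), in a class where 0.407% of 9826 genes were called. DESeq2 gave -0.85 with an adjusted p of 0.00169, where it called 0.581% of genes. The cells with at least 20 UMIs of the pair held 66.2% to 89.3% of the counts of the pair, and they numbered 26 to 34 per library. Without granule-positive cells the levels were 181, 165, 227 and 475 CPM, and the log2 fold change was -1.0 (edgeR adjusted p = 0.344, with 0.42% of genes called). In those cells 3, 5, 5 and 3 monocytes held 8.04%, 14.3%, 43.3% and 23.7% of the UMIs of the pair. After the same removal the S100a8 log2 fold change was -1.11 in B cell precursors, -1.12 in mature B cells and -1.11 in T cells. In each of these classes only WT 2 lay above both TLR9-/- libraries. In nonclassical monocytes the log2 fold change was 0.037. The part of the WT 2 background in the monocyte difference was not tested. The genotype difference of S100a8 in monocytes was lower than that in immature neutrophils by 0.88 on the log2 scale (edgeR with library as a block, adjusted p = 0.000767, where 0.45% of 10222 genes were called). S100a9 in monocytes had a log2 fold change of -0.57 (edgeR adjusted p = 0.745).

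S100a4, S100a6 and S100a10 in monocytes were close between genotypes. S100a4 was at -0.20 (SE 0.172), S100a6 at -0.07 (SE 0.164) and S100a10 at 0.15 (SE 0.183) on the log2 scale. In T cells S100a4 was at 0.03 (SE 0.263) and S100a10 at -0.18 (SE 0.214). S100a8 in T cells was 1161, 1631, 487 and 1239 CPM and S100a9 1291, 2141, 501 and 1473 CPM, with overlap between genotypes, at 0.70 (SE 0.344) and 0.81 (SE 0.389) on the log2 scale. None of these passed the edgeR test, which called 0.16% of genes in T cells. The T cell subcluster with NK markers had 1723, 3468, 78.1 and 543 CPM of S100a8. The subcluster led by Cd5 and Ifi27l2a had 738, 1066, 1364 and 2438 CPM. The part of the subclusters in the class values was not tested.

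The cells named monocyte precursors scored almost as high for the markers of granulocyte precursors. They had S100a8 at 656, 345, 724 and 581 CPM, a log2 fold change of -0.38 (edgeR adjusted p = 0.719, with 0.446% of genes called). Once granule-positive cells were left out, S100a8 was 62.6, 52.5, 237 and 216 CPM and S100a9 27.4, 18.8, 124 and 90.5 CPM. Both were lower in TLR9-/- without overlap, by -1.98 (edgeR adjusted p = 0.00271) and -2.23 (edgeR adjusted p = 0.0059), where 0.225% of 9315 genes were called. The cells left numbered 415, 247, 138 and 53, and 1, 2, 2 and 1 of them, each with at least 20 UMIs of the pair, held 14.9%, 14.1%, 77.8% and 35.0% of its UMIs. Most of the WT 1 value thus came from 2 cells. The median cell left held 1, 0, 0 and 2 UMIs of the pair, and 51.6%, 49.8%, 39.1% and 90.6% of the cells held at least 1. In B cell precursors of WT 2 after the same removal, the median was also 2, and 79.4% of cells held at least 1. The part of the few rich cells and of the high WT 2 background in the difference was not tested.

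In NK cells, plasma cells and basophils S100a8 was higher in TLR9-/- by 3.25, 3.97 and 1.38 on the log2 scale over all cells, with edgeR adjusted p = 0.695, 0.801 and 0.225, and edgeR called 0.0928% of genes in NK cells and 0.185% in basophils. NK cells had 1093, 9551, 99.5 and 1059 CPM of S100a8, so that 1 TLR9-/- library carried most of the difference. Nonclassical monocytes had 163, 716, 433 and 6286 CPM of S100a8, where WT 2 stood apart with 2 cells holding 85.7% of the pair, and the log2 fold change was -3.05 (edgeR adjusted p = 0.998). Plasma cells had 2167, 445, 7.72 and 154 CPM of S100a8, and 2, 1, 0 and 0 plasma cells held at least 20 UMIs of the pair. The part of such cells in the differences was not tested. Without granule-positive cells the S100a8 difference was -1.23 in NK cells and -1.40 in basophils, the opposite sign. NK cells then had 102.8, 76.4, 61.4 and 492 CPM, so that, as in basophils, WT 1 was the lowest library and only WT 2 lay above both TLR9-/- libraries.

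Conventional dendritic cells had S100a8 at 83.5, 199, 401 and 531 CPM, lower in TLR9-/- without overlap, with a log2 fold change of -1.70 (SE 0.34, edgeR adjusted p = 0.134) in a class where edgeR called 0.151% of 7290 genes and DESeq2 0.206%. In WT 1 a single cell with at least 20 UMIs held 87.4% of the pair's UMIs. Without granule-positive cells the levels were 62.0, 34.8, 34.2 and 240 CPM and the genotypes overlapped. With marked doublets left out, edgeR called S100a8 (-2.70, adjusted p = 9.85e-05) and S100a9 (-2.16, adjusted p = 0.000725) in these cells beside 0.333% of all genes. There, 1, 1, 1 and 2 cells with at least 20 UMIs of the pair held 16.8%, 25.4%, 87.8% and 46.7% of its UMIs. Doublets were marked by the expected rate in WT 2 only. The part of either in this difference was not tested. With classes made from marker UMIs the sign of S100a8 turned (1.16).

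Over all cells of a library, S100a1 was 87.8 and 99.8 CPM in TLR9-/- and 59.95 and 66.53 CPM in WT, a log2 fold change of 0.57 (edgeR adjusted p = 0.182, with 0.268% of genes called). DESeq2 called S100a1 (0.58, adjusted p = 0.0231) beside 6.35% of genes, and edgeR with the replicate number as a block called it as well (0.57, adjusted p = 0.0428) beside 8.21%. S100a4 was 64.9 and 62.7 against 53.1 and 41.0 CPM, at 0.44 (edgeR adjusted p = 0.291). The genotypes did not overlap for either gene. In such sums a different share of a cell type and a different level per cell cannot be told apart. Within granulocyte precursors S100a1 was at -0.10 and within monocytes at 0.24, and monocytes, which hold most of the S100a4 RNA, made up 11.2% and 12.5% of TLR9-/- cells and 5.72% and 5.98% of WT cells. Monocyte precursors held 30.8%, 26.5%, 20.5% and 13.4% of the S100a1 UMIs and made up 7.16% and 6.99% of TLR9-/- cells and 2.2% and 2.27% of WT cells. Granulocyte precursors held 21.7%, 36.5%, 22.5% and 38.5% of them and made up 2.58% and 4.07% of TLR9-/- cells and 1.16% and 3.0% of WT cells. In monocyte precursors the S100a1 levels, given above, overlapped between the genotypes.

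**Figure D5:**
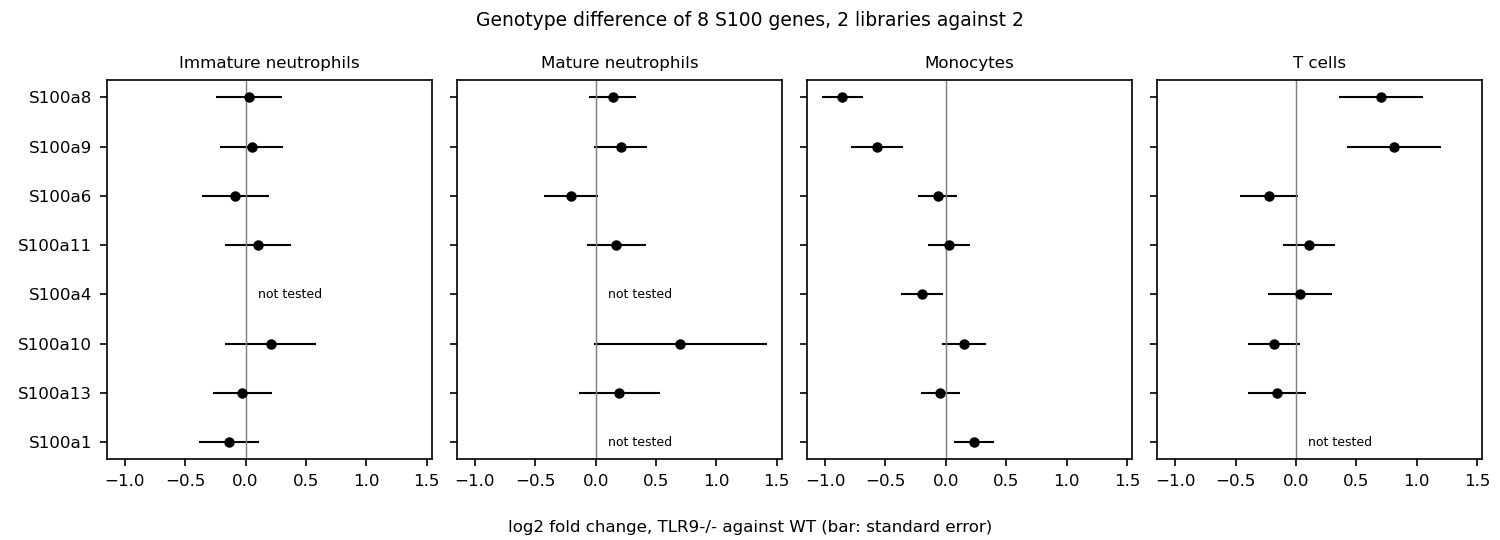
Log2 fold change of 8 S100 genes, TLR9-/- against WT, in immature neutrophils, mature neutrophils, monocytes and T cells, with bars for the standard error (2 libraries against 2). S100a8 and S100a9 stand at -0.86 and -0.57 in monocytes and at 0.70 and 0.81 in T cells, and S100a10 in mature neutrophils at 0.70 with a standard error of 0.717.

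Receptors and partners of S100 proteins were read from a list of 18 genes. In 229 tests of a listed gene in a class edgeR called 0, beside 0.302% over all genes, with 20 (8.73%) at an unadjusted p under 0.05, beside 6.53% over all genes, and the median absolute log2 fold change was 0.249 beside 0.232 over all genes. The receptor genes were not counted alike. Bsg was at 154 to 220 CPM in monocytes and 203.5 to 269.5 CPM in granulocyte precursors, and Cd69 at 57.3 to 136 CPM in T cells. Tlr4 was weakly counted, at 21.2 to 36.2 CPM in mature neutrophils and 4.0 to 5.82 CPM in monocytes, and its co-receptor Ly96 was at 24.3 to 84.7 and 26.4 to 37.1 CPM. Ager, which encodes RAGE, was at 10.6 to 23.1 CPM in mature neutrophils and 0.741 to 1.20 CPM in monocytes. Anxa2, the partner of S100a10, was 1731, 2050, 1144 and 1389 CPM in mature neutrophils, where S100a10 was 107, 42.2, 138 and 16.8 CPM, and 985, 989, 914 and 719 CPM in monocytes. Ahnak, a scaffold bound by the S100A10 and annexin A2 complex, was 407, 543, 405 and 494 CPM in monocytes and 1.13 to 4.42 CPM in immature neutrophils, the class where S100a10 was lowest. Anxa1, which encodes a calcium-dependent phospholipid-binding protein, was at 3172, 3661, 2526 and 2076 CPM in immature neutrophils and at 251 to 358 CPM in monocytes.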

How the data were processed

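The authors deposited 1 matrix of raw UMI counts per gene and cell barcode for each of 4 libraries (unit counts, not normalized). Per the file headers the software version was 3.0.1, and the submitters' processing notes and the study's methods name Cell Ranger, STAR, mm10 and Seurat 2.3.4. Cells with under 200 or over 10000 genes or over 10% mitochondrial UMIs were removed after the study's limits, whose mitochondrial limit was read as a fraction. Counts were scaled, 2000 variable genes without S100 symbols were reduced to 30 components and clustered at resolution 1 (leidenalg 0.10.2, 15 neighbours), and clusters were named from fixed marker lists. Groups came from the genotype labels. The 8 genes, the lists and the classes were chosen with earlier results of these data known, the motifs with the sequences in view.

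UMIs were summed per library and class, and classes with at least 10 cells in each library were tested with edgeR 4.0.16 (R 4.3.3; TMM scaling, filterByExpr, quasi-likelihood test, 2 against 2 libraries, Benjamini-Hochberg over all genes of the class). This replaced the study's test over cells. Differences of genotype effects between 2 classes used 13 classes with at least 100 cells per library. DESeq2 1.42.0 was an alternative. Single values were compared by two-sided exact permutation tests (scipy 1.17.1). Whether library numbers mark the 2 experiments is not given. Other alternatives were RLE factors, no low-count filter, a replicate block, 1 library left out, marked doublets left out, thinning to 500 UMIs, resolution 0.5, classes from marker UMIs, and, added after seeing the data, doublet-rich clusters kept and cells with a granule UMI left out. Doublets were marked by a Scrublet-type score without removal in the values given first (309, 420, 401 and 633 cells); in WT 2 the automatic threshold marked 0.0112% and the expected rate was used instead. Leaving clusters with over 40% marked doublets unnamed was decided after seeing the data. Named genes were the 8 members, the other S100 symbols, listed partners called or highest where members are highest, and the 3 genes most like each member, of which 1 is not reported here. Depth was 31210188 to 63958243 UMIs per library; intervals and floors (3 counts) cover counting error only. Scripts were tested on simulated data. No columns of other samples were found (0).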

Additional observations from a re-analysis of the deposited data

Results flagged for a closer look

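Differences of the TLR9-/- against WT effect between 2 cell classes were tested for the 8 genes over 78 pairs of 13 classes with at least 100 cells in each library, by edgeR with library as a block and Benjamini-Hochberg adjustment over all genes of the pair. Of 615 tests, 26 passed an adjusted p of 0.05 (15 of S100a8, 11 of S100a9 and 0 of the other 6 genes), beside 0.211% of 759102 tests over all genes. Values are log2 differences of the effect in the first class minus that in the second. The same libraries enter all pairs, so the results are not independent. Against B cell precursors, the differences were for basophils S100a8 1.42 and S100a9 1.78 (log2; edgeR adjusted p from 0.00169 to 0.0258). Against basophils, the differences were for conventional dendritic cells S100a8 -3.19 and S100a9 -2.58, for granulocyte precursors S100a8 -1.68 and S100a9 -1.87, for mature B cells S100a8 -1.88 and S100a9 -1.80, for monocyte precursors S100a8 -1.91 and S100a9 -1.62, for monocytes S100a8 -2.32 and S100a9 -2.16, for plasmacytoid dendritic cells S100a8 -1.62 and S100a9 -1.60 (log2; edgeR adjusted p from 1.03e-14 to 0.021). Against conventional dendritic cells, the differences were for granulocyte precursors S100a8 1.56, for haematopoietic stem and progenitor cells S100a8 1.55, for immature neutrophils S100a8 1.83, for mature neutrophils S100a8 1.98, for T cells S100a8 2.63 and S100a9 2.01 (log2; edgeR adjusted p from 1.05e-05 to 0.0457). Against granulocyte precursors, the differences were for T cells S100a8 1.05 and S100a9 1.25 (log2; edgeR adjusted p from 0.000199 to 0.0109). Against immature neutrophils, the difference was for monocytes S100a8 -0.88 (log2; edgeR adjusted p = 0.000767). Against mature B cells, the difference was for T cells S100a9 1.17 (log2; edgeR adjusted p = 0.0233). Against monocytes, the differences were for T cells S100a8 1.70 and S100a9 1.55 (log2; edgeR adjusted p from 0.0122 to 0.0342). In basophils and T cells 1 to 10 cells per library with at least 20 UMIs of the pair held between 66.5% and 98.5% of its UMIs. In conventional dendritic cells 1 or 2 such cells held 16.4% to 87.4%, and in haematopoietic stem and progenitor cells 1 to 7 held 58.2% to 96.0%. In monocytes 26 to 34 held 66.2% to 89.3%, and in monocyte precursors 12 to 41 held 76.2% to 91.3%. Without granule-positive cells the S100a8 log2 fold change in basophils was -1.40, where it was 1.38 over all cells. It was then -1.11 in B cell precursors, -1.12 in mature B cells and -1.37 in conventional dendritic cells. The part of cells rich in the pair in the differences between classes was not tested.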

How the results depend on the processing

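No test of an S100 gene in a class passed with edgeR over all cells, with RLE factors, with cells thinned to 500 UMIs, at resolution 0.5, with classes from marker UMIs or with doublet-rich clusters kept. DESeq2 called 2 of 132 (0.384% of all genes), no filter on low counts 13 of 144 (0.75%), marked doublets left out 2 of 130 (0.276%), and granule-positive cells left out 2 of 92 (0.237%). The replicate block called 11 S100 tests and 3 partner tests, and moved the calls over all genes from 361 to 1982; same-numbered libraries had a median correlation of 0.231 of their deviations (-0.0515 to 0.423 over 18 classes), and the labels tie no number to an experiment. Leaving out 1 library gave 6 to 10 S100 calls and 0 to 2 partner calls, and 538 to 1164 over all genes (0.409% to 0.964%); the lone library is then assumed to vary like the others. The difference in UMIs of the pair per cell turned to 4.07 with all T cells as the reference (exact permutation p = 0.67). There, cells with at least 20 UMIs of the pair held 66.5% to 93.5% of them. Without cells holding a UMI of Camp, Ngp, Ltf or Retnlg, the difference was -0.53 in T cells and -0.516 in mature B cells.

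Of 319 named values 248 kept their direction and call, 46 passed the threshold and 25 turned sign; the cause was not tested. With granule-positive cells left out, S100a8 and S100a9 turned to -1.40 and -0.76 in basophils, -1.23 and -0.86 in NK cells and 0.037 and 0.047 in nonclassical monocytes, and S100a9 to -2.23 in monocyte precursors. With marker classes S100a8 turned to 1.16 in conventional dendritic cells, 1.51 in monocyte precursors and -1.13 in plasma cells, with S100a9 at -1.37 in the last. S100a9 in monocyte precursors was -0.051 with the replicate block, -0.38 without marked doublets and -0.13 after thinning. S100a8 was -0.019 in NK cells without marked doublets and -0.061 in mature neutrophils at resolution 0.5. Over fits leaving out 1 library, values in immature neutrophils ran from -0.22 (without TLR9-/- 1) to 0.26 for S100a8, which was -0.16 without WT 2, and from -0.080 (without WT 2) to 0.20 for S100a9. In mature B cells they ran from -1.64 to 1.14 (without WT 2) for S100a8 and from -1.18 to 0.96 (without WT 2) for S100a9. S100a9 in mature neutrophils ran from -0.13 (without TLR9-/- 2) to 0.50. In monocyte precursors S100a8 ran from -0.92 to 0.0078 (without TLR9-/- 2), and S100a9 from -0.48 (without TLR9-/- 1) to 0.37, with -0.071 without WT 1. S100a8 in NK cells ran from 1.04 (without TLR9-/- 2) to 5.74 (without WT 2), in plasma cells from 2.47 (without TLR9-/- 1) to 7.25 (without WT 2), in basophils from 0.85 (without WT 1) to 2.21 (without WT 2) and in nonclassical monocytes from -4.33 (without TLR9-/- 2) to -0.21 (without WT 2), and was -6.17 in the last with marker classes. No filter on low counts called S100a8 in these classes (edgeR adjusted p of 2.36e-25, 0.000183, 2.79e-08 and 3.17e-06), as did the replicate block except in plasma cells (2.47e-32 in NK cells, 0.03 in basophils, 1.78e-13 in nonclassical monocytes) and some fits leaving out 1 library (down to 2.9e-32 in NK cells, 3.94e-07 in basophils and 1.74e-15 in nonclassical monocytes). S100a8 in monocytes ranged from -1.0 to -0.65 (adjusted p from 0.00169 to 0.813).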
